A study of Homo sapiens with 18 samples.

Results

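The 9 genes described here belong to the plasminogen system and to blood coagulation. They are *PLAU*, *PLAUR*, *PLAT*, *SERPINE2*, *F3*, *TFPI*, *TFPI2*, *THBD* and *PROCR*, and they were taken by gene name from tables that list 58302 genes. The choice was made with earlier results of these data known, so the shares over all genes given below are a description only. Each symbol matched 1 Ensembl gene. RNA-seq was performed on 3 human lung cancer cell lines with stable knockdown of *SYK*, a cytoplasmic tyrosine kinase. EBC-1 carries *MET* amplification, and PC-9 and HCC827 carry an *EGFR* exon 19 deletion. In each line, cells with the lentiviral shRNA clone TRCN0000003166 (shSYK) were set against negative control cells (nc). Each of the 6 groups held 3 libraries, 18 in all. Because 1 shRNA was used, an effect of *SYK* loss and an effect of that shRNA cannot be told apart. The labels do not say whether the 3 libraries of a group came from separate cultures, so the p-values measure only the spread between these libraries.

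Values are FPKM, the number of fragments on a gene per kilobase of the gene and per unit of library depth. Between 7920099 and 15729103 reads lay on genes in a library. *SYK* itself was at 52.3%, 32.1% and 32.9% of its nc mean in EBC-1, PC-9 and HCC827, and it fell in all 3 lines (log2 fold change -0.85 ± 0.074 (SE), limma adjusted p = 0.000271 in EBC-1, where the fall was the smallest). All 5 epithelial markers searched (*EPCAM*, *CDH1*, *KRT8*, *KRT18*, *KRT19*) had a mean of at least 1 FPKM in every group. Of 5 endothelial markers (*PECAM1*, *CDH5*, *VWF*, *KDR*, *TEK*), none reached 1 FPKM in EBC-1 or HCC827. In PC-9, 2 of them did, and the sum over the 5 was 15.1 to 17.0 FPKM in nc and 6.65 to 7.94 FPKM in shSYK, most of it *PECAM1*. The fibroblast list summed to 0.958 to 8.37 FPKM, most of it *COL1A1*, and the white blood cell list to 0.132 to 1.67 FPKM. The 3 lines were deposited in separate tables, so levels are given side by side across lines and were not tested between them.

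Plasminogen is a circulating proenzyme that becomes plasmin, a protease that dissolves fibrin and cleaves extracellular matrix. Its activators are uPA, encoded by *PLAU*, and tPA, encoded by *PLAT*. uPA acts at the cell surface while bound to its receptor uPAR, encoded by *PLAUR*, and protease nexin 1, encoded by *SERPINE2*, inhibits uPA, tPA and thrombin. Coagulation starts when tissue factor, encoded by *F3*, binds factor VIIa. TFPI blocks that complex together with factor Xa, while TFPI2 is a related Kunitz inhibitor that acts mainly on plasmin and other serine proteases of the matrix. Thrombomodulin, encoded by *THBD*, turns thrombin from a clotting enzyme into an activator of protein C, and the endothelial protein C receptor, encoded by *PROCR*, presents protein C to that complex. Carcinoma cells are known to make several of these proteins.

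Promoter sequences from RefSeq (GRCh38.p14, 250 bases before to 50 bases after each start site) were found for 7 of the 9 genes, with 9 start sites among them. They were searched on both strands for TGACTCA or TGAGTCA, the site of AP-1, for GGGCGG, the core of the Sp1 site, and for CAGACA, a site of SMAD proteins, since FRA1 (an AP-1 subunit), Sp1 and Smad2/3 were the transcription factors that the study examined. AP-1 letters were in 4.95% of all 35116 promoters in the same reference, Sp1 letters in 45.0% and SMAD letters in 16.9%. The AP-1 site was found in *F3*, 210 bases before the start site, and in *PLAUR*, 186 bases before it. The *F3* window held 4 Sp1 matches, the second start site of *PLAU* 3, *PROCR* 2, *TFPI2* 2, and the windows of *SERPINE2* 1 and 2, while the first start site of *PLAU* and that of *TFPI* held 1 SMAD match each. The 4 sequences below are those of the genes with an AP-1 match and of the members called in opposite directions in different lines, *PLAU* and *PROCR*, written 5′ to 3′ with every match in capitals.
F3, chr1:94541710-94542009, minus strand: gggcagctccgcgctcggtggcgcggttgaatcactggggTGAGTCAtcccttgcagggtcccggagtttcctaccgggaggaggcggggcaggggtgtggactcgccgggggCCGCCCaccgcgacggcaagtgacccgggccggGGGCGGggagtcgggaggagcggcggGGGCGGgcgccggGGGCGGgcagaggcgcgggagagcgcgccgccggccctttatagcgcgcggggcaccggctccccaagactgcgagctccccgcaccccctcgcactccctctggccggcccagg
PLAUR, chr19:43670120-43670419, minus strand: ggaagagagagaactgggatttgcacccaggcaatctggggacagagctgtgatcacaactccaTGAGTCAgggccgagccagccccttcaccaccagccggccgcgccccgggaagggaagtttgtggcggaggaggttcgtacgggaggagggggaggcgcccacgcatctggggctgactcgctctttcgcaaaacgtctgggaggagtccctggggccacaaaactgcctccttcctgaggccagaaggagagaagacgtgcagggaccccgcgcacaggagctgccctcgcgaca
PLAU, second start site, chr10:73910882-73911181, plus strand: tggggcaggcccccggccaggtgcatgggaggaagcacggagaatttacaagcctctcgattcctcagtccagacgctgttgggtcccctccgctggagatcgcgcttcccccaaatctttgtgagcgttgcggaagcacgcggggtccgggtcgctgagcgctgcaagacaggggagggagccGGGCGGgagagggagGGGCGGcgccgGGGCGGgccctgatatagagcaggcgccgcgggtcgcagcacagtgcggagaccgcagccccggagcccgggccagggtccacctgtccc
PROCR, chr20:35171822-35172121, plus strand: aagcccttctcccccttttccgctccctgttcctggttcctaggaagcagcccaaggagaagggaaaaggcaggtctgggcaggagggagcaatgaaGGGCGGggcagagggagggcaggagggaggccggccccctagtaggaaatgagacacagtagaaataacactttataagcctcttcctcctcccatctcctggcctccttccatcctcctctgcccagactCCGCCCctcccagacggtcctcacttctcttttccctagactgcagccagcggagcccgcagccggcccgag
A match says only that these letters are in the window, and no binding was measured here.

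In EBC-1 every one of the 9 genes changed upon *SYK* knockdown, 5 upward (*F3*, *TFPI2*, *PLAUR*, *SERPINE2*, *TFPI*) and 4 downward (*THBD*, *PLAT*, *PROCR*, *PLAU*). Among the 12430 genes tested in this line, 23.1% were called upward and 21.6% downward. The nc and shSYK libraries did not overlap for any of the 9 genes, against 56.9% of all genes tested. The median log2 fold change was 0.44 for the 9 genes and 0.009 for all genes. When each library was brought to the same total (TPM), the median of all genes in EBC-1 moved by 0.13 and the share of upward calls went from 51.7% to 67.9%. All 9 genes kept their direction and their call on that scale.

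In PC-9 a single member was called, *PLAT*, which fell. Of the 12089 genes tested there, 0.678% were called upward and 1.41% downward. At an unadjusted limma p under 0.05, 2 members were higher (*PLAU*, *F3*) and 2 lower (*PLAT*, *TFPI2*), beside 1881 of the 12089 genes in either direction. By limma-voom 1 member rose (*PLAU*) and 1 fell (*PLAT*), beside 120 and 365 of all genes. 8 of the 9 genes passed the filter of a mean of 1 FPKM, and *TFPI* did not. *PLAT*, *PLAU* and *TFPI2* had groups that did not overlap, 3 of 8 members, against 23.7% of all genes tested. The median over the 8 members was 0.0019, beside 0.0088 over all genes.

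In HCC827, 5 members rose (*F3*, *PLAU*, *PROCR*, *TFPI*, *SERPINE2*) and by limma none of the tested members fell, with 1 lower at an unadjusted p under 0.05 (*PLAUR*) and 0 falling by limma-voom. The background was 17.2% called upward and 20.7% downward among 11999 genes. *PLAT* was under the filter, and 6 of the 8 tested members had groups that did not overlap, against 52.3% of all genes tested. Their median log2 fold change was 0.34, beside -0.0053 over all genes. With TPM the share of upward calls among all genes went from 45.4% to 56.5%, and the 5 rises kept their direction and call. Across the 3 lines, 6 members were called in 2 lines, 3 in 1 line and 0 in all 3. The shares of all genes for these counts were not computed. Few genes of any kind were called in PC-9 (0.678% upward and 1.41% downward), which limits calls in all 3 lines. *PLAU* and *PROCR* were called in opposite directions in EBC-1 and HCC827, against 3.26% of the 10691 genes tested in both lines. *F3*, *TFPI* and *SERPINE2* rose in both, against 8.64%. None fell in both by limma, at an unadjusted limma p under 0.05 or by limma-voom, against 8.52% of all genes by limma.

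**Figure D1:**
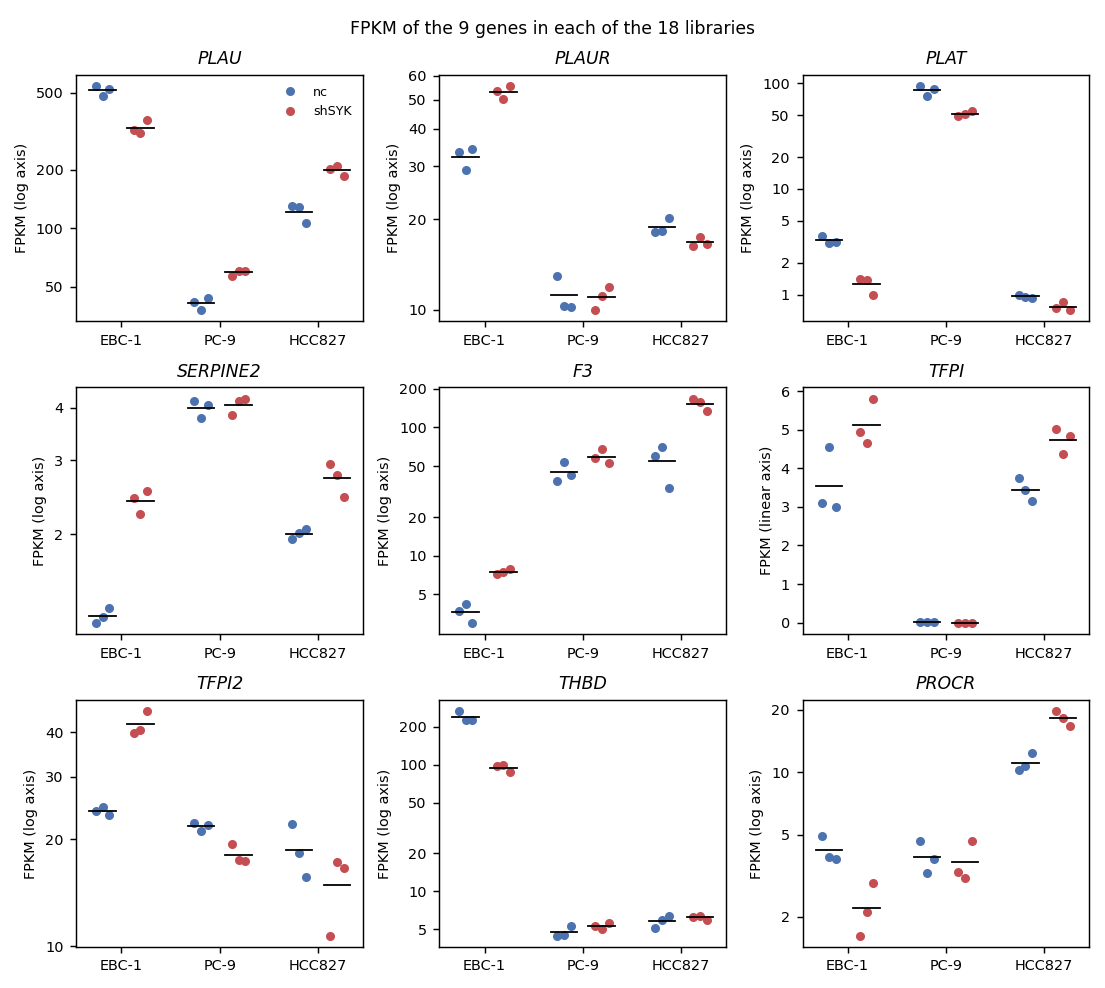
FPKM of the 9 genes in each library of EBC-1, PC-9 and HCC827, with nc in blue, shSYK in red and a bar at the mean of 3 libraries. The axes are logarithmic except for *TFPI*, which is on a linear axis because its PC-9 shSYK libraries are at 0. *THBD* in EBC-1 was at 227 FPKM or more in nc and at 99.2 FPKM or less in shSYK, while in PC-9 and HCC827 all its libraries lay between 4.47 and 6.41 FPKM.

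*PLAU* (uPA, ENSG00000122861, hg38 chr10:73909177-73917497 on the plus strand) was the most abundant of the 9 genes in EBC-1 and HCC827. In EBC-1 it read 544, 479.6 and 522 FPKM in the nc libraries and 319.9, 311 and 363 FPKM in the shSYK libraries. The groups were apart, and the mean fell from 515 ± 32.6 to 331 ± 27.7 FPKM (SD, n = 3), with log2 fold change -0.64 ± 0.082 (SE), limma adjusted p = 0.00113. HCC827 nc libraries held 129.8, 129 and 106 FPKM and shSYK libraries 203, 209 and 186 FPKM, so here each shSYK library was above each nc library. This rise was 1.63-fold in mean FPKM (log2 fold change 0.71 ± 0.091 (SE), limma adjusted p = 0.00134). PC-9 had the lowest levels, 41.8, 37.9 and 43.7 FPKM in nc and 56.8, 60.1 and 60.5 FPKM in shSYK, again with no overlap. The PC-9 difference missed the threshold (log2 fold change 0.51 ± 0.10 (SE), limma adjusted p = 0.0560). It passed with TPM (limma adjusted p = 0.0301), quantile normalization (0.0361), a fit of all 18 libraries (0.00145), limma-voom on recovered reads (0.0261) and without PC-9 nc library 1 (0.0283), with a range of adjusted p over the 15 alternatives of 0.00145 to 0.278. In order of level, *PLAU* ran from EBC-1 nc through EBC-1 shSYK, HCC827 shSYK, HCC827 nc and PC-9 shSYK to PC-9 nc, and no neighbours in that order overlapped. The nc mean in EBC-1 was 12.5 times that in PC-9. An overlapping gene on the other strand, *C10orf55*, held at most 3.05% as many reads as *PLAU* in a library, and strand use in counting is not stated.

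*PLAUR*, the uPA receptor (ENSG00000011422, hg38 chr19:43646095-43670547 on the minus strand), rose in EBC-1, where its ligand fell. It read 33.4, 29.2 and 34.3 FPKM in nc and 53.6, 50.3 and 55.6 FPKM in shSYK, with every shSYK library above every nc library. The rise was 1.65-fold in mean FPKM (log2 fold change 0.70 ± 0.081 (SE), limma adjusted p = 0.000741). In PC-9 the groups overlapped, at 10.2 to 12.99 FPKM in nc and 9.99 to 11.9 FPKM in shSYK (log2 fold change -0.015 ± 0.12 (SE), limma adjusted p = 0.975). HCC827 libraries did not overlap, at 18.1 to 20.2 FPKM in nc and 16.2 to 17.5 FPKM in shSYK, and the difference was small and not called (log2 fold change -0.16 ± 0.062 (SE), limma adjusted p = 0.0751). The order of levels was EBC-1 shSYK, EBC-1 nc, HCC827 nc, HCC827 shSYK, PC-9 nc and PC-9 shSYK, and only the last pair overlapped.

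*PLAT* (tPA, ENSG00000104368, hg38 chr8:42175233-42207724 on the minus strand) was highest in PC-9, with an nc mean 89.0 times that in HCC827. The PC-9 nc libraries held 94.6, 75.5 and 87.5 FPKM and the shSYK libraries 48.6, 51.6 and 54.0 FPKM, without overlap. The fall, to 59.8% of the nc mean, was the call in PC-9 (log2 fold change -0.72 ± 0.12 (SE), limma adjusted p = 0.0338). It was lost with no filter (limma adjusted p = 0.0796), and without nc library 3 (0.192) or shSYK library 1, 2 or 3 (0.201, 0.181 and 0.153), with log2 fold changes of -0.81 to -0.65 over all 15 alternatives. The sum of the endothelial markers in PC-9, most of it *PECAM1* (at most 14.4 FPKM in nc and 5.34 FPKM in shSYK), fell too. Any part of that fall in the result was not tested. In EBC-1 *PLAT* read 3.61, 3.06 and 3.15 FPKM in nc and 1.40, 1.38 and 0.9998 FPKM in shSYK, from 90 to 329 reads. Here too the groups were apart, and *PLAT* fell (log2 fold change -0.92 ± 0.11 (SE), limma adjusted p = 0.000803). HCC827 had 0.940 to 1.003 FPKM in nc and 0.719 to 0.853 FPKM in shSYK, from 48 to 74 reads, and was under the filter. Ordered by level, PC-9 nc and PC-9 shSYK stood highest, followed by EBC-1 nc, EBC-1 shSYK, HCC827 nc and HCC827 shSYK, and EBC-1 shSYK overlapped HCC827 nc.

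*SERPINE2*, the protease nexin (ENSG00000135919, hg38 chr2:223975112-224039319 on the minus strand), was low in all lines and rose in EBC-1 and HCC827. EBC-1 libraries held 1.23, 1.27 and 1.33 FPKM in nc and 2.45, 2.23 and 2.53 FPKM in shSYK, from 140 to 355 reads. This was a 1.88-fold rise with groups apart (log2 fold change 0.58 ± 0.089 (SE), limma adjusted p = 0.00228). In HCC827 the values were 1.94, 2.01 and 2.06 FPKM in nc and 2.94, 2.77 and 2.45 FPKM in shSYK, also apart (log2 fold change 0.31 ± 0.081 (SE), limma adjusted p = 0.0220). The HCC827 call was lost with no filter (limma adjusted p = 0.0632) and without nc library 1 or 2 or shSYK library 1 or 2 (limma adjusted p = 0.0538 to 0.0693). PC-9 nc (3.79 to 4.16 FPKM) and shSYK (3.85 to 4.21 FPKM) overlapped, and the difference was 0.019 ± 0.089 (SE) on the log2 scale. PC-9 shSYK and PC-9 nc had the highest levels, followed by HCC827 shSYK, EBC-1 shSYK, HCC827 nc and EBC-1 nc, with overlap between the PC-9 groups and between HCC827 shSYK and EBC-1 shSYK.

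*F3*, tissue factor (ENSG00000117525, hg38 chr1:94529225-94541800 on the minus strand), whose promoter is printed above, had the largest change of the members in HCC827. Its nc libraries there read 59.8, 70.2 and 34.0 FPKM and the shSYK libraries 168, 158 and 135 FPKM. The nc libraries were spread, and the highest of them was still below the lowest shSYK library. The mean went from 54.7 ± 18.7 to 154 ± 16.7 FPKM (SD, n = 3), a 2.81-fold rise (log2 fold change 1.53 ± 0.24 (SE), limma adjusted p = 0.00301). In EBC-1 *F3* was low and rose from 3.71, 4.18 and 3.01 FPKM to 7.22, 7.49 and 7.88 FPKM. That was 2.07-fold with no overlap (log2 fold change 0.89 ± 0.10 (SE), limma adjusted p = 0.000770). PC-9 libraries overlapped narrowly, at 38.2, 53.5 and 42.3 FPKM in nc and 57.5, 67.8 and 52.4 FPKM in shSYK (log2 fold change 0.41 ± 0.16 (SE), limma adjusted p = 0.277), and no alternative called this difference. From high to low, the order was HCC827 shSYK, PC-9 shSYK, HCC827 nc, PC-9 nc, EBC-1 shSYK and EBC-1 nc. PC-9 shSYK overlapped HCC827 nc, which overlapped PC-9 nc, and the other neighbours were apart.

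*TFPI*, the inhibitor of the tissue factor complex (ENSG00000003436, hg38 chr2:187464230-187565760 on the minus strand), was at similar levels in EBC-1 and HCC827 and near 0 in PC-9. EBC-1 read 3.09, 4.55 and 3.00 FPKM in nc and 4.93, 4.65 and 5.81 FPKM in shSYK. The groups were narrowly apart and the call was close to the threshold (log2 fold change 0.44 ± 0.14 (SE), limma adjusted p = 0.0369). It was lost in 7 of 14 alternatives, among them no filter (limma adjusted p = 0.117) and the removal of nc library 1, nc library 3 or any of shSYK libraries 1 to 3 (limma adjusted p = 0.0522 to 0.116). HCC827 went from 3.74, 3.44 and 3.16 FPKM to 5.02, 4.37 and 4.83 FPKM, a 1.37-fold rise with groups apart (log2 fold change 0.37 ± 0.078 (SE), limma adjusted p = 0.00946). The PC-9 nc libraries held 1, 4 and 1 reads on *TFPI* and the shSYK libraries 0, at or about the floor of 3 reads, so no fold is given. EBC-1 shSYK, HCC827 shSYK, EBC-1 nc and HCC827 nc overlapped in turn at the top of the order, and the PC-9 groups stood far below.

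*TFPI2*, the Kunitz inhibitor of plasmin (ENSG00000105825, hg38 chr7:93885397-93890991 on the minus strand), rose in EBC-1. It read 23.9, 24.6 and 23.3 FPKM in nc and 39.9, 40.5 and 45.8 FPKM in shSYK, with a wide gap between the groups (log2 fold change 0.79 ± 0.073 (SE), limma adjusted p = 0.000340). In PC-9 the values were 22.2, 21.2 and 21.9 FPKM in nc and 19.4, 17.5 and 17.4 FPKM in shSYK. These groups were apart in the other direction, without a call (log2 fold change -0.26 ± 0.10 (SE), limma adjusted p = 0.254). HCC827 overlapped, at 22.1, 18.3 and 15.6 FPKM in nc and 10.7, 17.3 and 16.6 FPKM in shSYK, where shSYK library 1 lay below the rest (log2 fold change -0.33 ± 0.19 (SE), limma adjusted p = 0.207). Of all members *TFPI2* had the most even level between the nc groups, 1.28 times higher in EBC-1 than in HCC827. In the order of levels, EBC-1 shSYK and EBC-1 nc stood apart, then PC-9 nc, HCC827 nc and PC-9 shSYK overlapped in turn, and HCC827 shSYK was lowest. *GNGT1*, which overlaps *TFPI2* on the other strand, had at most 7.33% as many reads in a library.

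*THBD*, thrombomodulin (ENSG00000178726, hg38 chr20:23045633-23049741 on the minus strand), was high in EBC-1, 49.97 times its nc mean in PC-9, and fell there. EBC-1 nc libraries read 264, 228 and 227 FPKM and shSYK libraries 98.5, 99.2 and 87.7 FPKM. The groups were far apart, and the mean fell to 39.7% of nc (log2 fold change -1.32 ± 0.086 (SE), limma adjusted p = 8.36e-05), beside 38.5% for *PLAT*. All 15 alternatives called this fall, with log2 fold changes of -1.36 to -1.19. In PC-9 the libraries overlapped, at 4.47 to 5.37 FPKM in nc and 5.05 to 5.59 FPKM in shSYK (log2 fold change 0.13 ± 0.10 (SE), limma adjusted p = 0.619). HCC827 was alike in level, 5.12 to 6.37 FPKM in nc and 5.97 to 6.41 FPKM in shSYK, with overlap (log2 fold change 0.091 ± 0.080 (SE), limma adjusted p = 0.402). EBC-1 nc and EBC-1 shSYK headed the order without overlap, and HCC827 shSYK, HCC827 nc, PC-9 shSYK and PC-9 nc followed, each overlapping the next.

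*PROCR*, the protein C receptor (ENSG00000101000, hg38 chr20:35172073-35216240 on the plus strand), went down with *THBD* in EBC-1 and up in HCC827. EBC-1 held 4.92, 3.87 and 3.799 FPKM in nc and 1.63, 2.12 and 2.90 FPKM in shSYK, from 42 to 115 reads. The shSYK libraries were spread but all lay below the nc libraries (log2 fold change -0.71 ± 0.16 (SE), limma adjusted p = 0.00941). In HCC827 nc the libraries held 10.2, 10.7 and 12.4 FPKM and in shSYK 19.7, 18.4 and 16.7 FPKM, each shSYK library above each nc library (log2 fold change 0.67 ± 0.087 (SE), limma adjusted p = 0.00143). PC-9 ranged over 3.25 to 4.63 FPKM in nc and 3.08 to 4.65 FPKM in shSYK and overlapped (log2 fold change -0.071 ± 0.16 (SE), limma adjusted p = 0.896). HCC827 shSYK and HCC827 nc were the highest groups and apart, EBC-1 nc, PC-9 nc and PC-9 shSYK overlapped in turn, and EBC-1 shSYK was lowest. An overlapping gene on the other strand, *MMP24-AS1*, had 105 to 533 reads in a library, up to 1184% of the reads of *PROCR*, and without a stated strand setting the reads of the 2 genes cannot be told apart for certain. In bulk libraries such as these, fewer cells with a transcript and less of it per cell cannot be told apart, for *PROCR* or any other member.

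**Figure D2:**
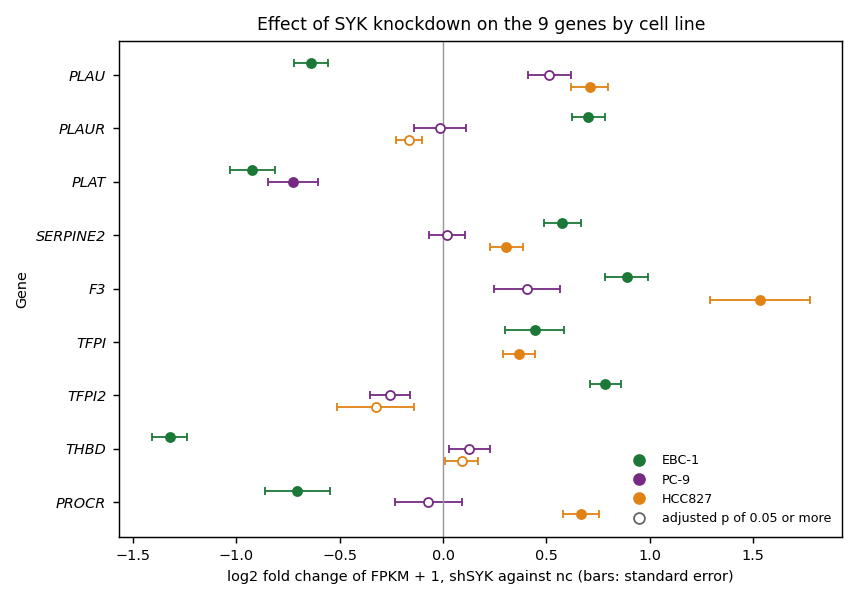
Log2 fold change of FPKM + 1 in shSYK against nc for the tested members in EBC-1 (green), PC-9 (purple) and HCC827 (orange), with standard errors as bars and open symbols where the adjusted p was 0.05 or more. *PLAU* and *PROCR* have filled symbols on either side of 0, and *THBD* in EBC-1 (-1.32) and *F3* in HCC827 (1.53) lie farthest out.

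Whether the knockdown acted differently between the lines was tested for each gene as the difference of the log2 fold changes in a single fit of the 18 libraries. The effect in EBC-1 differed from that in PC-9 for 6 of the 9 genes, against 19.8% of the 12672 genes in the fit, and 5 of the 6 had effects of opposite sign. EBC-1 and HCC827 also differed for 6 of 9 genes, 5 with opposite signs, against 21.8% of all genes. PC-9 and HCC827 differed for 3 of 9 genes, against 7.5% of all genes, 1 of them with opposite signs. A sign counted here may belong to an effect near 0 and not called, such as *PLAUR* in PC-9 (-0.015). Only *PLAU* and *PROCR* were called on both sides of 0, in EBC-1 and HCC827. The share of opposite signs over all genes was not counted. The 2 comparisons with EBC-1 share the EBC-1 libraries and are not independent of each other.

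The fall of *THBD* in EBC-1 was set apart from both other lines, by -1.45 ± 0.12 (SE), limma adjusted p = 1.34e-06 against PC-9 and by -1.41 ± 0.12 (SE), limma adjusted p = 1.02e-06 against HCC827. *PLAU* followed, with differences of -1.15 ± 0.13 (SE), limma adjusted p = 1.92e-05 for EBC-1 minus PC-9, and -1.35 ± 0.13 (SE), limma adjusted p = 2.72e-06 for EBC-1 minus HCC827. For these 2 genes PC-9 and HCC827 were not called different, 0.036 ± 0.12 (SE), limma adjusted p = 0.924 for *THBD* and -0.19 ± 0.13 (SE), limma adjusted p = 0.450 for *PLAU*. The rises of *PLAUR* and *TFPI2* in EBC-1 were set apart likewise, *TFPI2* by 1.04 ± 0.20 (SE), limma adjusted p = 0.00175 against PC-9 and 1.11 ± 0.20 (SE), limma adjusted p = 0.000833 against HCC827, and *PLAUR* by 0.72 ± 0.13 (SE), limma adjusted p = 0.00134 and 0.87 ± 0.13 (SE), limma adjusted p = 0.000209. *PROCR* differed most between EBC-1 and HCC827 (-1.37 ± 0.22 (SE), limma adjusted p = 0.000294), while EBC-1 minus PC-9 missed the threshold (-0.63 ± 0.22 (SE), limma adjusted p = 0.0502). PC-9 minus HCC827 for *PROCR* was just inside it (-0.74 ± 0.22 (SE), limma adjusted p = 0.0484) and was lost in 16 of 24 alternatives, with adjusted p between 0.0217 and 0.118.

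The *F3* effect was larger in HCC827 than in PC-9, with -1.13 ± 0.28 (SE), limma adjusted p = 0.0229 for PC-9 minus HCC827. Leaving out PC-9 shSYK library 1 or 3 or HCC827 shSYK library 1 or 2 ended that call (limma adjusted p = 0.0531 to 0.0652). Between EBC-1 and HCC827 the *F3* effect was not called different (-0.64 ± 0.28 (SE), limma adjusted p = 0.120). The *PLAT* effect was lower in EBC-1 and PC-9 than in HCC827, where its level was under 1 FPKM, with -0.77 ± 0.13 (SE), limma adjusted p = 0.000433 for EBC-1 and -0.57 ± 0.13 (SE), limma adjusted p = 0.0107 for PC-9, and the latter was lost with a pseudocount of 0.1 (limma adjusted p = 0.159) and with limma-voom (0.133). EBC-1 and PC-9 were not called different for *PLAT* (-0.20 ± 0.13 (SE), limma adjusted p = 0.298), although a pseudocount of 0.1 (0.0267) and limma-voom (0.00789) called it. The *SERPINE2* effect was larger in EBC-1 than in PC-9 (0.56 ± 0.10 (SE), limma adjusted p = 0.000889) and not called different between EBC-1 and HCC827 (0.27 ± 0.10 (SE), limma adjusted p = 0.0575). 7 of 23 alternatives called the latter, among them TPM (0.47, limma adjusted p = 0.0173) and limma-voom (0.50, adjusted p = 0.0181), and adjusted p ran from 0.0173 to 0.143. For *TFPI* the EBC-1 effect differed from that in PC-9 (0.47 ± 0.16 (SE), limma adjusted p = 0.0460), which rests on a PC-9 level at the floor and was lost in 17 of 23 alternatives.

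**Figure D3:**
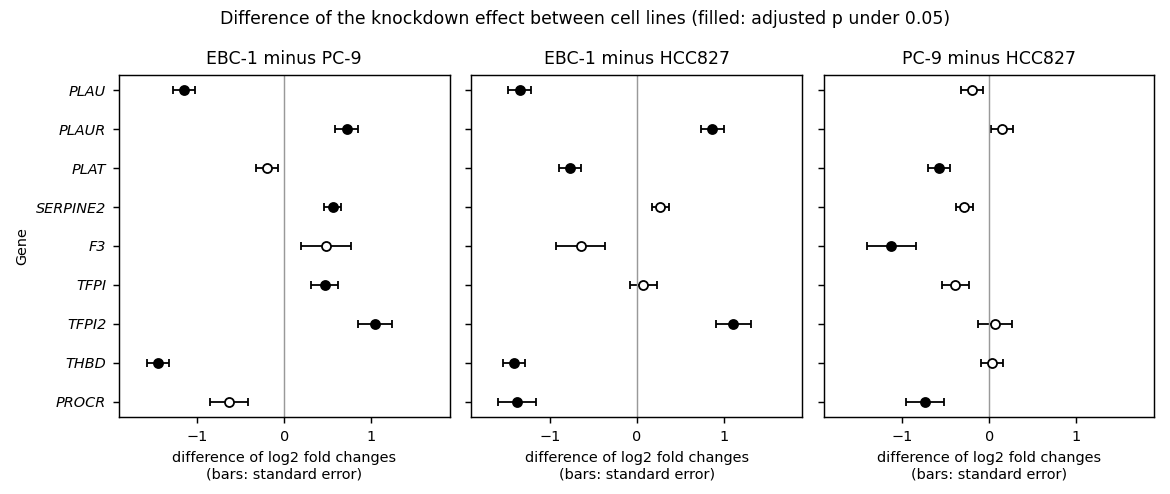
Difference between cell lines in the log2 fold change of shSYK against nc, one panel per pair of lines, with standard errors as bars and filled symbols at an adjusted p under 0.05. The EBC-1 panels hold 6 filled symbols each and the panel of PC-9 minus HCC827 holds 3, all of these 3 to the left of 0.

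The balance between an activator and its partner or inhibitor was followed as the log2 ratio of their FPKM within a library, which does not depend on the scaling of the library. With 3 against 3 libraries, the smallest p of the exact two-sided permutation test is 0.1. All 14 ratios below had groups that did not overlap and reached that p, before any adjustment. These ratios are made in part of members whose groups were already apart by themselves. The share over other pairs of genes was not computed. *PLAU* to *PLAUR*, the enzyme to its receptor, was 4.03, 4.04 and 3.93 in EBC-1 nc and 2.58, 2.62 and 2.71 in EBC-1 shSYK, so that the FPKM ratio went from 16.0 to 6.22. In HCC827 the log2 ratio went the other way, from 2.84, 2.82 and 2.39 to 3.64, 3.57 and 3.49. PC-9 moved with HCC827, from 1.68, 1.88 and 2.10 to 2.51, 2.44 and 2.34. The mean difference in EBC-1 was -1.36, beside 0.89 in HCC827 and 0.54 in PC-9.

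*PLAU* to *SERPINE2*, the enzyme to its inhibitor, differed on average by -1.55 in EBC-1, while the HCC827 and PC-9 values were 0.28 and 0.50. *PLAT* to *SERPINE2* was lower in shSYK in every line, with a difference of -2.30 in EBC-1 and of -0.76 in both HCC827 and PC-9. In EBC-1 this ratio changed sides, from 2.55 times as much *PLAT* as *SERPINE2* in nc to 0.519 times in shSYK. The ratios of *F3* to its inhibitor *TFPI* were higher in shSYK, by 0.51 in EBC-1 and 1.09 in HCC827, and PC-9 has too few *TFPI* reads for a ratio. For *F3* to *TFPI2* the differences were 1.898 in HCC827, 0.68 in PC-9 and 0.25 in EBC-1. The HCC827 ratio of *F3* to *TFPI2* went from 2.82 to 10.52 in FPKM, from log2 values of 1.43, 1.94 and 1.12 to 3.97, 3.19 and 3.02.

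**Figure D4:**
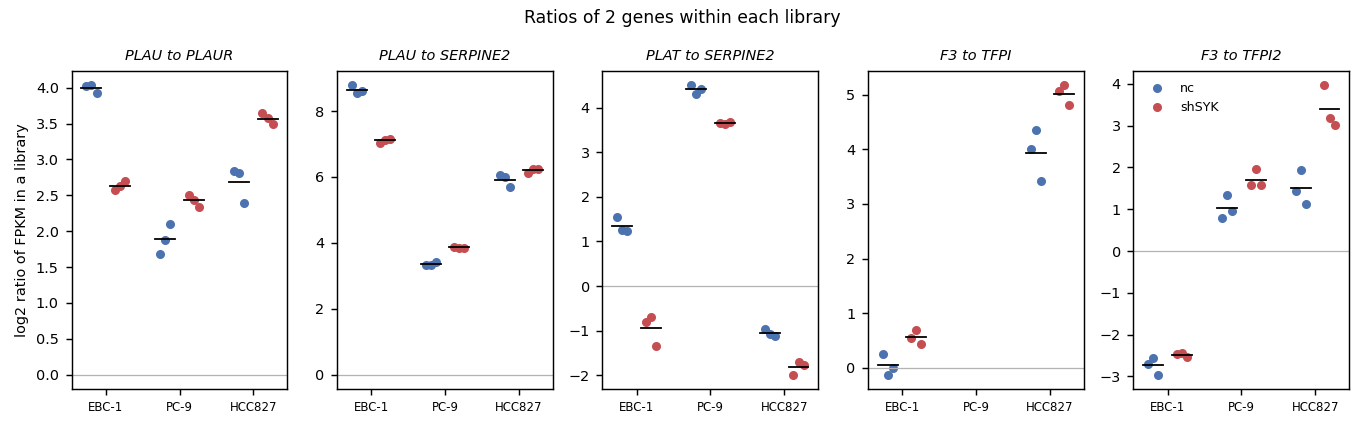
Log2 ratio of the FPKM of 2 genes in each library, with nc in blue, shSYK in red and a bar at the mean of 3 libraries. *PLAU* to *PLAUR* is lower in shSYK in EBC-1 and higher in PC-9 and HCC827, *PLAT* to *SERPINE2* is lower in all 3 lines, and *F3* to *TFPI* is not drawn for PC-9.

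Around these members, 61 further genes of the plasminogen and clotting systems were followed by role. In EBC-1, 29 of the 61 passed the filter, of which 9 rose and 8 fell (median log2 fold change -0.0046), against 23.1% of all genes called upward and 21.6% downward. HCC827 had 34 tested, 7 rising and 16 falling (median -0.17), against 17.2% and 20.7%. The falls include *MRC2* in EBC-1 and *FGA*, *HABP2* and *SERPINA5* in HCC827, which passed the filter only through nc and had to be lower in shSYK. PC-9 had 26 tested, with 0 called upward and 1 downward (median 0.059), against 0.678% and 1.41%. At an unadjusted limma p under 0.05, 5 were higher and 6 lower in PC-9, and limma-voom called 2 upward and 2 downward. In EBC-1 limma-voom called 10 of the list upward and 9 downward, and in HCC827 it called 8 upward and 13 downward.

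Among the genes listed under plasminogen activation and its inhibitors, *SERPINA5* (protein C inhibitor) fell in EBC-1 from 16.7 ± 1.03 to 6.53 ± 0.865 FPKM (mean ± SD, n = 3, here and for the genes after it), with log2 fold change -1.24 ± 0.10 (SE), limma adjusted p = 0.000196. *SERPINB8*, listed there as an intracellular serpin, rose in EBC-1 (log2 fold change 0.65 ± 0.10 (SE), limma adjusted p = 0.00234). *SERPINB2*, which encodes an inhibitor of uPA, was under the filter everywhere, at 0.0264, 0.202 and 0.123 FPKM in EBC-1 nc and 0.446, 0.311 and 0.910 FPKM in EBC-1 shSYK, where the groups did not overlap, and at no more than 3 reads in any library of PC-9 or HCC827. Of the genes that bind plasminogen or uPA or clear them, 3 rose and 4 fell of 8 tested in EBC-1, beside 23.1% and 21.6% of all genes, and 1 of the 4 is *MRC2*, which passed the filter only through nc. *LRP1*, the endocytic receptor for complexes of uPA with its inhibitors, fell there from 11.9 ± 0.651 to 3.28 ± 0.247 FPKM (log2 fold change -1.60 ± 0.076 (SE), limma adjusted p = 3.51e-05), and *MRC2*, a collagen receptor that associates with uPAR, fell as well (log2 fold change -1.12 ± 0.12 (SE), limma adjusted p = 0.000602). *SERPINB5*, the serpin maspin, rose in EBC-1 (log2 fold change 0.92 ± 0.089 (SE), limma adjusted p = 0.000389), as did *FURIN*, a protease that processes proproteins (log2 fold change 0.61 ± 0.12 (SE), limma adjusted p = 0.00489).

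Of the 16 clotting factors and cofactors, 5 were tested in HCC827, and *FGA* and *HABP2* are left out of the count here since they passed the filter only through nc. The other 3, *FGB*, *FGG* and *F12*, fell, against 20.7% of all genes called downward in HCC827. The fibrinogen chain gene *FGB* read 33.9, 33.4 and 29.6 FPKM in nc and 8.24, 11.2 and 11.7 FPKM in shSYK (log2 fold change -1.56 ± 0.12 (SE), limma adjusted p = 0.000239). *FGG*, another fibrinogen chain, fell from 5.57, 5.56 and 4.90 FPKM to 0.751, 1.18 and 1.35 FPKM (log2 fold change -1.61 ± 0.12 (SE), limma adjusted p = 0.000199). *HABP2*, a serine protease that can activate uPA and factor VII, went from 3.94 ± 0.0135 to 0.908 ± 0.383 FPKM, and *FGA*, the remaining fibrinogen chain, from 2.24 ± 0.128 to 0.245 ± 0.128 FPKM. *FGA*, *FGB* and *FGG* had no reads in EBC-1 and at most 7 in a PC-9 library. *PROS1*, protein S, the cofactor of activated protein C, rose in HCC827 from 5.63 ± 0.330 to 10.47 ± 0.702 FPKM (log2 fold change 0.79 ± 0.070 (SE), limma adjusted p = 0.000347), in the line where *PROCR* rose. *TPST2*, a protein tyrosine sulfotransferase (log2 fold change 0.62 ± 0.074 (SE), limma adjusted p = 0.00109), and *F2R*, the thrombin receptor (log2 fold change 0.57 ± 0.12 (SE), limma adjusted p = 0.00971), rose there as well.

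*F2RL1*, protease-activated receptor 2, which the complex of tissue factor and factor VIIa can cleave, rose with *F3* in EBC-1 and HCC827. It read 10.4, 10.4 and 11.2 FPKM in EBC-1 nc and 15.9, 16.6 and 15.4 FPKM in EBC-1 shSYK (log2 fold change 0.54 ± 0.066 (SE), limma adjusted p = 0.000896). In HCC827 it went from 20.3, 22.4 and 19.3 FPKM to 31.0, 27.02 and 25.1 FPKM (log2 fold change 0.40 ± 0.090 (SE), limma adjusted p = 0.0110), and the groups were apart in these 2 lines. PC-9 had 23.6 to 24.9 FPKM in nc and 20.3 to 21.9 FPKM in shSYK, apart in the other direction and not called (log2 fold change -0.17 ± 0.093 (SE), limma adjusted p = 0.432). The gene of the list called in PC-9 was *VKORC1L1*, a vitamin K epoxide reductase, which fell (log2 fold change -0.47 ± 0.086 (SE), limma adjusted p = 0.0450). *VKORC1L1* fell in HCC827 as well (log2 fold change -0.55 ± 0.059 (SE), limma adjusted p = 0.000701). In EBC-1 it was not called (log2 fold change 0.075 ± 0.067 (SE), limma adjusted p = 0.388).

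**Figure D5:**
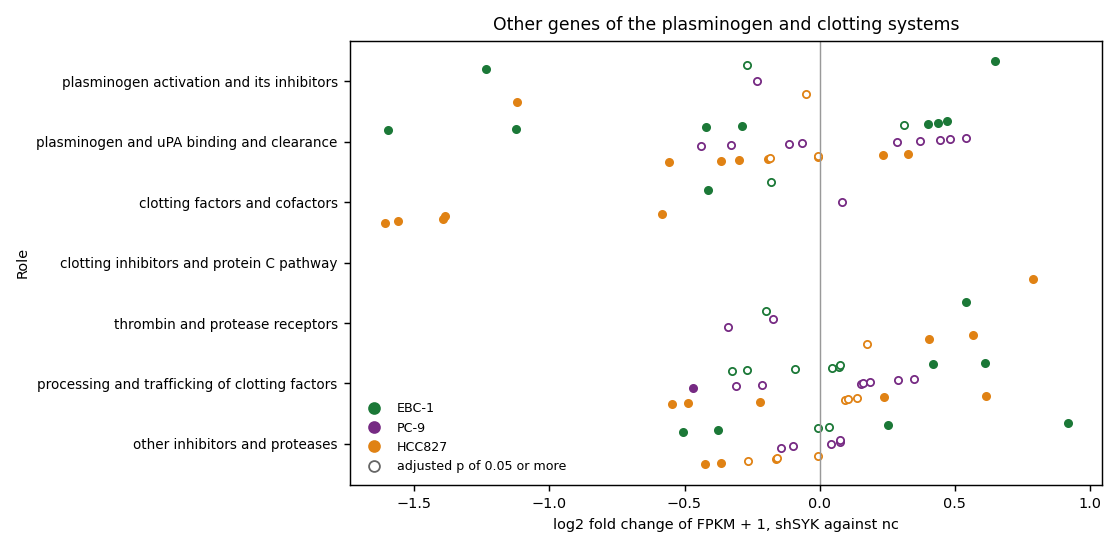
Log2 fold change of FPKM + 1 in shSYK against nc for the tested genes of the list of 61, by role and cell line, with open symbols where the adjusted p was 0.05 or more. The 5 clotting factors of HCC827, of which *FGA* and *HABP2* passed the filter only through nc, lie between -1.61 and -0.58, and nearly all PC-9 symbols are open.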

How the data were processed

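RNA was extracted with TRIzol from 18 samples and sequenced on an Illumina HiSeq by a service provider. Reads were aligned to hg38 according to the study's methods. The submitters' processing notes name HISAT2 and CASAVA and the builds hg38, GRCh38, hg19 and GRCh37, without roles. The counting program, its strand setting and the annotation are not given in the sources used here. The authors deposited 1 table of FPKM per cell line. FPKM times gene length was a whole multiple of 1 constant per library (100% of values within 0.01), which returned the reads per gene. The denominator of FPKM is not stated, so changes are relative to the other genes of a library. Read numbers cover counting error only.

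Within each line, shSYK was compared with nc by limma 3.58.1 (R 4.3.3, empirical Bayes with a variance trend) on log2(FPKM + 1), for genes with a mean of at least 1 FPKM over 6 libraries. A call required an adjusted p under 0.05 (Benjamini-Hochberg over all genes tested). Fold changes on this scale understate those of low genes. Differences between lines were contrasts in 1 fit of 18 libraries. Ratios were compared by an exact two-sided permutation test over all 20 assignments. The code was tested on simulated data. No library was a copy of another, since the chi-square divided by its degrees of freedom was 2.11 (EBC-1 shSYK 1 and 2) to 38.7 (PC-9 nc 1 and 2) between replicates.

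The 9 members and the lists were chosen with earlier results of these data known. All members are named. Of the pathway list, *SERPINB2* and *F2RL1* are named always, and in each line the 3 largest rises and 3 largest falls among called genes. The genes most like a member are the 2 with the highest Pearson r. *FGA*, *F12* and overlapping genes were named after their values were seen. 1 gene of the list is not reported here and is in no count. Gene positions are those in the tables, and promoters came from RefSeq. Effects within a line were recomputed with a pseudocount of 0.1, no filter or one of 5 FPKM, TPM, quantile normalization and no variance trend. They were also refitted with all 18 libraries, a replicate block, limma-voom on the recovered reads and 1 library left out at a time. Differences between lines had these alternatives, except no filter, no variance trend and the fit of all 18 libraries, already their main fit. Ratios were recomputed with 1 added to both FPKM values and with 1 library left out at a time. Software was Python 3.11.15, scipy 1.17.1, pandas 2.3.3, matplotlib 3.10.9 and numpy 2.4.6.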

Additional observations from a re-analysis of the deposited data

Results flagged for a closer look

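The effect of the knockdown differed between 2 cell lines, by the test of the difference itself in limma, for 15 of the 27 pairings of a gene with 2 lines, 11 of them with effects of opposite sign. Over all 12672 genes, 19.8% differed between EBC-1 and PC-9, 21.8% between EBC-1 and HCC827 and 7.5% between PC-9 and HCC827. The comparisons share libraries, so the pairings are not independent. An opposite sign does not mean that both effects were called. Only *PLAU* and *PROCR* were called in opposite directions, in EBC-1 and HCC827. Each value is the log2 fold change in the line named first minus that in the line named second. For EBC-1 minus PC-9 these were *THBD* -1.45, *PLAU* -1.15, *TFPI2* 1.04, *PLAUR* 0.72, *SERPINE2* 0.56 and *TFPI* 0.47. For EBC-1 minus HCC827 they were *THBD* -1.41, *PROCR* -1.37, *PLAU* -1.35, *TFPI2* 1.11, *PLAUR* 0.87 and *PLAT* -0.77. For PC-9 minus HCC827 they were *F3* -1.13, *PROCR* -0.74 and *PLAT* -0.57. The value for *TFPI* rests on PC-9 libraries with at most 4 reads. *SYK* was at 52.3% of nc in EBC-1 and at 32.1% and 32.9% in PC-9 and HCC827, and the part of that gap in these differences was not tested.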

How the results depend on the processing

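Of 1009 recomputed single-gene values, 930 stayed on their side of the threshold. Another 57 kept their direction but lost the call, 22 gained a call and 0 changed the sign of a call. Uncalled values near 0 could change sign, such as *PLAUR* in PC-9, from -0.015 to 0.089 without nc library 1. Members changed in EBC-1 numbered 9, and 5 with a filter of 5 FPKM, under which fewer members were tested. In PC-9 the count was 1, with 0 without a filter, and 2 with TPM, quantile normalization, all 18 libraries in the fit or limma-voom on recovered reads. HCC827 had 5, and 3 with the filter of 5 FPKM, which left fewer members. Members that differed between PC-9 and HCC827 went from 3 to 1 with a pseudocount of 0.1. The cause of the PC-9 and pseudocount changes was not tested. With limma-voom the share of upward calls over all genes was 63.1% in EBC-1 and 58.4% in HCC827, and upward calls among all differences of EBC-1 and PC-9 went from 50.02% to 68.8% with TPM, which moved their median by 0.15, and 61.3% with limma-voom. Adding 1 to each FPKM changed the log2 ratio differences to -1.21 for *PLAU* to *SERPINE2*, -1.50 for *PLAT* to *SERPINE2* and 0.10 for *F3* to *TFPI2* in EBC-1, and to -0.46 for *PLAT* to *SERPINE2* in HCC827, since 1 weighs more on low values.

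The deviations of same-numbered libraries correlated at -0.219 to 0.034 in EBC-1, -0.121 to 0.325 in PC-9 and 0.002 to 0.063 in HCC827. Only the pair numbered 2 in PC-9 was above 0.1, so the libraries were taken to share only a number, and not every library correlated best with its own number. With the replicate block, the members called were 8 in EBC-1, 0 in PC-9 (*PLAT* limma adjusted p = 0.0756) and 5 in HCC827, and the members that differed were 5, 6 and 2 for EBC-1 and PC-9, EBC-1 and HCC827, and PC-9 and HCC827.

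Leaving out 1 library at a time left 8 to 9 members called in EBC-1, 0 to 2 in PC-9 and 4 to 5 in HCC827. The members that differed were then 5 to 7 for EBC-1 and PC-9, 6 to 7 for EBC-1 and HCC827, and 1 to 3 for PC-9 and HCC827, with 1 without PC-9 shSYK library 1 or HCC827 shSYK library 1 or 2. The ratio differences ran over -1.40 to -1.33, 0.44 to 0.65 and 0.74 to 0.96 for *PLAU* to *PLAUR* in EBC-1, PC-9 and HCC827. In the same order they were -1.59 to -1.48, 0.48 to 0.53 and 0.16 to 0.35 for *PLAU* to *SERPINE2*, -2.43 to -2.10, -0.81 to -0.71 and -0.82 to -0.68 for *PLAT* to *SERPINE2*, and 0.14 to 0.34, 0.56 to 0.84 and 1.61 to 2.12 for *F3* to *TFPI2*. For *F3* to *TFPI* they were 0.43 to 0.62 in EBC-1 and 0.84 to 1.30 in HCC827. Depth limited *TFPI* in PC-9, *SERPINB2*, and *PLAT* in HCC827, which had 48 to 74 reads.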

Other observations

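Of the 61 further pathway genes, 27 were tested in both EBC-1 and HCC827. 8 of them fell in both lines, or 6 without *MRC2* and *SERPINA5*, which passed the filter in 1 of the lines only through nc, 2 rose in both and 1 went in opposite directions. Over all 10691 genes tested in both lines these shares were 8.52%, 8.64% and 3.26%. These shared calls are those of the main limma fit only. With limma-voom the list had 13 falls in HCC827, against 16 in the main fit. Genes not yet described are named here after their values were seen. *ENO1*, whose surface form binds plasminogen, went from 1517 ± 154 to 1240.1 ± 63.7 FPKM in EBC-1 and from 1643 ± 122 to 1276 ± 89.2 FPKM in HCC827. *ST14*, the membrane protease matriptase, which activates uPA precursor, fell in both (limma log2 fold changes -0.38 and -0.42), and *SPINT2*, an inhibitor of such proteases, fell as well (-0.51 and -0.16). *ITGA3* fell and *ITGB1* rose in both lines, integrin subunits that pair with each other (-0.42 and -0.19 for *ITGA3*, 0.44 and 0.23 for *ITGB1*). The HCC827 falls of *ITGA3* and *SPINT2* were small and near the threshold (limma adjusted p = 0.0481 and 0.0318). *FURIN* rose in EBC-1 and fell in HCC827 (0.61 and -0.49), and that difference was not tested for this gene. In EBC-1 *ANXA2* and *S100A10* rose, which form a surface complex that binds tPA and plasminogen, from 135 ± 6.51 to 187 ± 9.50 FPKM for *ANXA2* and from 67.0 ± 4.37 to 88.9 ± 8.69 FPKM for *S100A10*. In PC-9 both genes were higher with groups apart and were not called. Their log2 fold changes there were 0.54 ± 0.12 (SE), limma adjusted p = 0.0723 for *ANXA2* and 0.28 ± 0.13 (SE), limma adjusted p = 0.360 for *S100A10*. HCC827 groups overlapped, at 99.6% and 99.7% of the nc mean.

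Across the 18 libraries, with the mean of each line removed, the genes whose log2(FPKM + 1) followed a member most closely were *AOX1* and *VANGL1* for *SERPINE2* (Pearson r = 0.96 for each), *HABP4* and *LIPA* for *PLAU* (0.95 for each), *C1S* and *POLE3* for *PLAUR* (0.95 and 0.93), and *KIAA0513* and *CYP2S1* for *PLAT* (0.98 and 0.96). *THBD* was followed by *DDIT3* and *H1F0* (0.97 and 0.96), *F3* by the pseudogene *SBDSP1*, which may share reads with its parent gene, and *PHLDB2* (0.96 and 0.95), *TFPI* by *OSBPL9* and *ULBP3* (0.92 and 0.90), *TFPI2* by *POLD3* and *QTRT2* (0.90 for each), and *PROCR* by *TLDC1* and *KIF3C* (0.87 for each). Between the members themselves, r over the 36 pairs ran from -0.88 (*PLAUR* and *THBD*) to 0.80 (*SERPINE2* and *TFPI*). Within a line the values differed, over 6 libraries each. The pair *PLAUR* and *THBD* had -0.97 (EBC-1), -0.31 (PC-9) and -0.01 (HCC827), and *SERPINE2* and *TFPI* had 0.81, -0.58 and 0.85, and 20 of the 36 pairs had opposite signs in EBC-1 and HCC827. These values describe 18 libraries that share the knockdown contrast and the depth of each library, and carry no test.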
